A study of Mus musculus with 28 samples.

Results

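Proteasome subunit genes were read out by RNA sequencing of islets from 28 male mice, each mouse giving 1 library. Members were the rows of the deposited table whose symbol starts with Psma, Psmb, Psmc, Psmd, Psme, Psmf or Psmg, which gave 48 of 14219 genes. Of these, 44 encode standard subunits, assembly factors or regulators of the proteasome, and 3 encode the immune subunits (Psmb8, Psmb9 and Psmb10), which are given apart. The remaining row, Psmc3ip, shares only the prefix and encodes a cofactor of meiotic recombination. All 48 passed the filter of at least 1 CPM (read counts scaled to library size) in at least 6 libraries, which kept 13591 genes. Psma8 and Psmb11, whose best known sites are testis and thymus, had no row under those symbols in the table.

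The mice came from a C57Bl6 and 129sv background and were 10 to 12 weeks old. The labels gave 8 libraries of βKlf6KO mice (Klf6flox/flox;Ins1Cre/+) given S961, 8 of control mice (Klf6flox/flox;Ins1+/+) given S961, 6 of βKlf6KO mice given saline and 6 of control mice given saline. Both genotypes carry the floxed Klf6 alleles, and Cre sits in 1 Ins1 allele, so it acts in β cells while islets also hold other cell types. S961 is a peptide that blocks the insulin receptor. Per the labels, RNA came from 120 to 150 islets per mouse after overnight culture, and the question was which genes differ between the genotypes under each treatment.

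The proteasome degrades proteins tagged with ubiquitin. Its barrel-shaped core is built from rings of α subunits, which form the gate, and rings of β subunits, of which Psmb5, Psmb6 and Psmb7 cut the substrate. A regulatory particle made of an ATPase base and a lid recognises, unfolds and feeds in the substrate. Interferon and immune cells raise Psmb8, Psmb9 and Psmb10, which replace the standard catalytic subunits and shape the peptides shown on class I molecules. In β cells the proteasome also clears misfolded proinsulin and has been studied in cytokine responses.

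The promoters of the catalytic genes Psmb8, Psmb9, Psmb10, Psmb5 and Psmb6 are printed. The remaining catalytic gene, Psmb7, had no entry among the promoters used. The sequences are from RefSeq on build GRCm38.p6, each 300 bases around the RefSeq annotated start, 5′ to 3′ on the gene's strand. The windows of Psmb8 and Psmb9 lie inside the GENCODE genes given further on. They leave out the GENCODE gene starts, so motifs there were not searched. Capitals mark matches on either strand to 4 motifs: the interferon-stimulated response element (GAAA, any 2 bases, GAAA), TTCNNNGAA (the STAT site), TGACNNNGC (the antioxidant response element, a site of Nfe2l1 and Nfe2l2) and CCAAT (the NF-Y box). Psmb8 is chr17:34197945-34198244 (plus strand), Psmb9 is chr17:34187281-34187580 (minus strand), Psmb10 is chr8:105938343-105938642 (minus strand), Psmb5 is chr14:54617946-54618245 (minus strand) and Psmb6 is chr11:70525107-70525406 (plus strand).
Psmb8: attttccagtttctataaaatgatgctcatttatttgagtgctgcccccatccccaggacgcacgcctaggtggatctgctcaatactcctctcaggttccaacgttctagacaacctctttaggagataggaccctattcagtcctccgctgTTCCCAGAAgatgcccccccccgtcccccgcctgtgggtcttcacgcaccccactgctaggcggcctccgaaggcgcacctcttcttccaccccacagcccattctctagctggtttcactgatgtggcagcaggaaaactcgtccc
Psmb9: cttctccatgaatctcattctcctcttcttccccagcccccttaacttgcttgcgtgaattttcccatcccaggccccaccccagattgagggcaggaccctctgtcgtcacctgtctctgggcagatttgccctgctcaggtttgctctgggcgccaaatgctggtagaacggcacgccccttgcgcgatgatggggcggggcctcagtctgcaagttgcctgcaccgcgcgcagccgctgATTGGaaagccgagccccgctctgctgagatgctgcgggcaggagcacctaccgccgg
Psmb10: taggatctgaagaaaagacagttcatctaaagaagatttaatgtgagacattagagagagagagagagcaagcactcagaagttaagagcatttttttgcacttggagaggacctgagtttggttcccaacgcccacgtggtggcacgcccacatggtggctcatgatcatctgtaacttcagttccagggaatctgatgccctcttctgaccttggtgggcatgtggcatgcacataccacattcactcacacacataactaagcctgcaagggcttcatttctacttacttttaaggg
Psmb5: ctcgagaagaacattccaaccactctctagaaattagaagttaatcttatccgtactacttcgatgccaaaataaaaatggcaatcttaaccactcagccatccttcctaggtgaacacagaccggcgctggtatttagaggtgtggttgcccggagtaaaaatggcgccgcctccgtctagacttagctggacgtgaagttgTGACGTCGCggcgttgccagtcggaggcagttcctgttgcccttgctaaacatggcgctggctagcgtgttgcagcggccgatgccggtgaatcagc
Psmb6: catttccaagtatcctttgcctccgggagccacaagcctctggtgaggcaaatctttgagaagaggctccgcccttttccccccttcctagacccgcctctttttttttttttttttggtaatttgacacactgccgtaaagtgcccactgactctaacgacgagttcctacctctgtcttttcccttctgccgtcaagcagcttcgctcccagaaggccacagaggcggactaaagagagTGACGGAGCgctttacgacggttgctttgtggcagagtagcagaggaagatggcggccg

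Counted from the first base printed, the Psmb8 window held TTCNNNGAA at base 154 and the Psmb9 window held CCAAT, on the opposite strand, at base 243. The windows of Psmb5 and Psmb6 held TGACNNNGC at bases 204 and 242, and that of Psmb10 held none of the 4 motifs. None of these matches overlapped another. Among the 40 members with a promoter entry, TGACNNNGC was in 6 (15%), against 12.392% of 32851 mouse promoters of the same length. TTCNNNGAA was in 3 members (7.5%, against 8.298% of all promoters), and the interferon-stimulated response element was in 5 members (12.5%, against 3.443%): Psmb3, Psmd4, Psmd9, Psme1 and Psmg4. CCAAT was in 13 members (32.5%, against 37.408%). Members were counted by gene and the background by promoter entry, so the shares have unlike units where a gene has several entries. A match describes letters in the window and is no evidence of binding.

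The libraries held 28868638 to 45001633 reads over the genes of the table. The targeted gene did not follow the labels: Klf6 averaged 7.22 ± 0.51 log2 CPM in libraries labelled βKlf6KO S961, against 6.94 ± 0.72 in those labelled control S961 (SD, n = 8 each). It averaged 6.97 ± 0.26 in libraries labelled βKlf6KO saline, against 7.0 ± 0.42 in those labelled control saline (SD, n = 6 each). Gene counts do not separate the deleted exons, and other islet cells keep Klf6, so groups are named here by their labels. The β-cell hormone gene Ins2 was high in every group, with lowest libraries at 14.22, 12.31, 15.25 and 13.16 log2 CPM in the order βKlf6KO S961, control S961, βKlf6KO saline and control saline. Control S961 replicates 2 and 8 and control saline replicate 4 stood apart on the first principal component, with scores of 139.6, 79.8 and 98.4 against at most 48.1 in any other library. That component held 54.9% of the variance, and its gene loadings ran with transcript GC content (Spearman -0.845 over 13584 genes).

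The standard subunits were present in every library, some at even levels between mice and others not, as given further on. The α ring genes Psma1 to Psma7 had means of 6.51 to 7.62 log2 CPM, the base ATPases Psmc1 to Psmc6 had 6.12 to 7.26, and the 8 lid genes had 5.49 to 7.42. Per kilobase of the longest transcript, the highest members were Psma6 (7.39 log2 CPM per kb) and Psma1 (7.15), both of the α ring. The lowest were the core assembly chaperone Psmg3 (0.04), the immune subunit Psmb9 (1.34) and Psme2b (1.90), a near copy of the activator gene Psme2 with which it may share reads. On the same scale, the immune subunits Psmb8 (3.02) and Psmb10 (2.75) lay below their standard partners Psmb5 (4.73) and Psmb7 (5.56), and Psmb9 lay below its partner Psmb6 (6.18). No member was absent from a library: the lowest values were 4 reads for Psmg3, 26 for Psmb10, 43 for Psmg4, 44 each for Psmb9 and Psme2b, and 92 for Psmb8.

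No standard member passed the test for labelled genotype after saline (0 of 44, limma, Benjamini-Hochberg adjusted p below 0.05 over all genes), where 2.78% of all genes did (2.09% higher and 0.692% lower in labelled βKlf6KO). At an unadjusted p below 0.05 there was 1, and limma with voom weights on recovered reads also called 0. The median log2 difference of the 44 (labelled βKlf6KO minus labelled control) was 0.04, against 0.00 over all genes, and 25 were positive. After S961 the count was again 0 of 44 with 0 by voom, while 4.36% of all genes passed (2.35% higher and 2.01% lower), and 3 members had an unadjusted p below 0.05. The median there was 0.02, as over all genes, and 23 were positive.

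These results bounded the size of most differences. After saline, 41 of 44 standard members had a 95% interval of the difference within 2-fold either way (93.2%, against 80.9% of all genes), and 35 within 1.5-fold (79.5%, against 47% of all genes). After S961, 41 lay within 2-fold (93.2%, against 81.3%) and 34 within 1.5-fold (77.3%, against 50.6%). The members not bounded within 2-fold were in both treatments Psmg3, the lid gene Psmd3 and the catalytic gene Psmb5, whose values spread widely between mice. The plot of differences by role shows narrow intervals around 0 for most of the base and lid and wide ones for these genes.

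**Figure D1:**
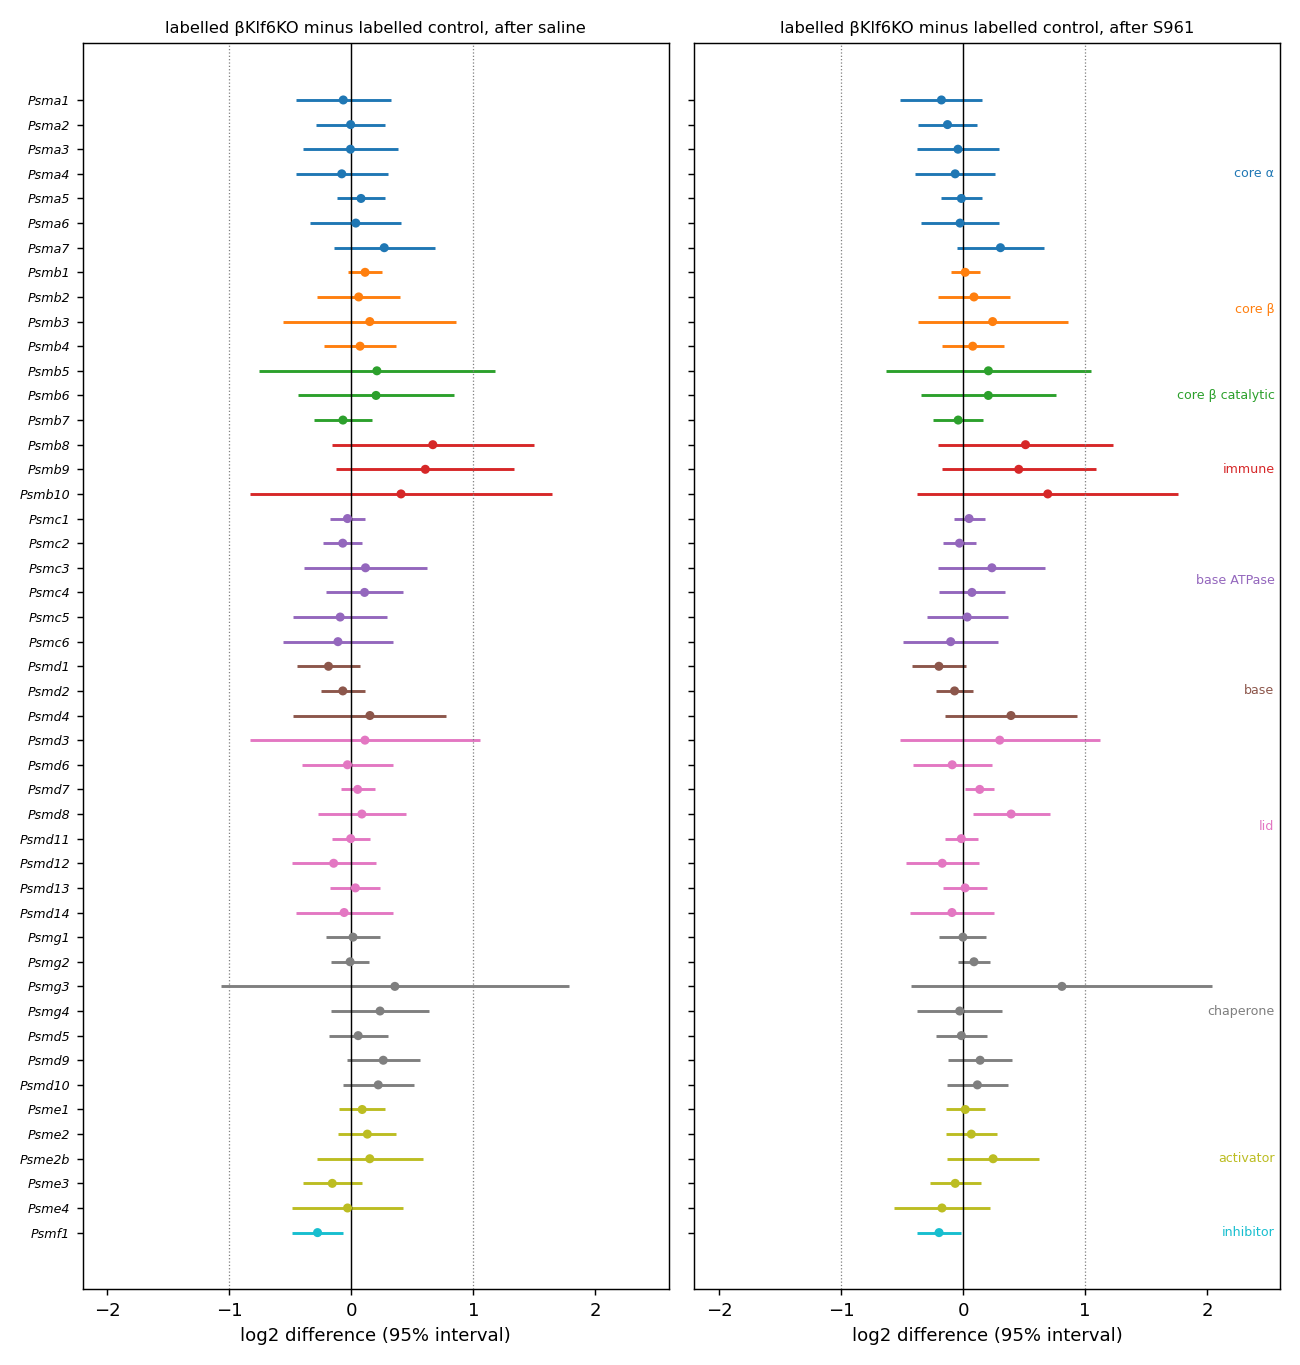
Log2 difference (labelled βKlf6KO minus labelled control) of 47 proteasome genes after saline (left) and after S961 (right), ordered and coloured by role; points are estimates, bars 95% intervals and dotted lines a 2-fold change. The intervals of Psmg3, Psmd3 and Psmb5 reach past 2-fold in both panels, and those of Psmf1 lie below 0.

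By role, the differences went in no common direction. In the α ring, 3 of 7 genes were positive after saline (-0.08 to 0.27) and 1 of 7 after S961 (-0.18 to 0.31), with Psma7 the highest in both. The 4 structural β genes Psmb1 to Psmb4 were positive in both treatments, at 0.06 to 0.15 after saline and 0.02 to 0.24 after S961, and none was called. Of the 6 base ATPases, 2 were positive after saline (-0.11 to 0.12) and 4 after S961 (-0.10 to 0.24). Among the other base genes, the scaffold genes Psmd1 (-0.19 after saline and -0.20 after S961) and Psmd2 (-0.07 in both) were negative, and the ubiquitin receptor gene Psmd4 was positive (0.15 and 0.39). The lid had 4 of 8 positive in each treatment (-0.14 to 0.11 after saline and -0.17 to 0.39 after S961). Of 7 assembly chaperones, 6 were positive after saline (-0.01 to 0.36) and 4 after S961 (-0.03 to 0.81), with Psmg3 at the top each time. The activators had 3 of 5 positive in both (-0.16 to 0.15 after saline and -0.17 to 0.25 after S961). Psmc3ip, which is no proteasome gene, differed by 0.42 after saline (adjusted p = 0.595, limma) and 0.28 after S961 (adjusted p = 0.512).

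The standard member with the smallest p after saline was Psmf1, which encodes an inhibitor of the core (chromosome 2, 151715812 to 151744186, minus strand, GRCm38). Its lowest, median and highest values were 5.58, 5.61 and 5.77 log2 CPM in libraries labelled βKlf6KO saline, against 5.61, 5.94 and 6.10 in those labelled control saline. The βKlf6KO values sat low and close together, and the groups overlapped. The difference was -0.28 ± 0.10 (SE; limma, adjusted p = 0.157). After S961 it had 5.48, 5.70 and 5.81 in libraries labelled βKlf6KO, against 5.49, 5.85 and 6.31 in those labelled control, a difference of -0.20 ± 0.09 (limma, adjusted p = 0.180). The low ends of these groups coincided and the highest control mice lay above every βKlf6KO mouse. Within sequencing lanes 4, 5, 6 and 7, each with 1 or 2 libraries per group, Psmf1 differed by -0.43, -0.40, -0.16 and -0.21 after saline and by -0.19, -0.39, -0.15 and -0.05 after S961. The call of Psmf1 depended on the setting: it passed after saline with library weights (-0.38, adjusted p = 1.04e-04), with the first component as a covariate (-0.33, adjusted p = 0.00456) or without the 3 libraries that stood apart (-0.34, adjusted p = 0.0432). Over its 12 alternatives after saline the adjusted p was 1.04e-04 to 0.207. After S961 it passed with median centring (-0.25, adjusted p = 0.0481) and with the first component (-0.27, adjusted p = 0.00632), in a range of 0.00632 to 0.316 over 12 alternatives.

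After S961, the lid gene Psmd8 had the smallest p among standard members. Its lowest, median and highest values were 7.19, 7.57 and 8.27 log2 CPM in libraries labelled βKlf6KO S961, against 6.69, 7.18 and 7.77 in those labelled control S961. The groups overlapped, with the βKlf6KO values centred higher. The difference was 0.39 ± 0.15 (SE; limma, adjusted p = 0.125), within lanes 4 to 7 it was 0.32, 0.46, 0.51 and 0.28, and after a GC correction it was 0.23 (adjusted p = 0.286, in a range of 0.0614 to 0.311 over 12 alternatives). After saline Psmd8 had 7.19, 7.43 and 7.73 in libraries labelled βKlf6KO, against 7.05, 7.34 and 7.60 in those labelled control, a difference of 0.09 ± 0.18. Another lid gene, Psmd7, was higher by 0.14 ± 0.06 after S961 (limma, adjusted p = 0.163). It is among the most even members, with 6.65, 6.80 and 7.09 in libraries labelled βKlf6KO S961, against 6.53, 6.69 and 6.79 in those labelled control S961. The next by p after saline were the base chaperone Psmd9 at 0.26 ± 0.15 (adjusted p = 0.447) and the structural β gene Psmb1 at 0.11 ± 0.07 (adjusted p = 0.479).

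The standard catalytic genes were not called. Psmb5, the chymotrypsin-like site, had lowest, median and highest values of 3.52, 4.65 and 5.50 log2 CPM in libraries labelled βKlf6KO S961, against 2.17, 4.60 and 5.34 in those labelled control S961. After saline it had 4.24, 5.03 and 5.18 in libraries labelled βKlf6KO, against 2.80, 5.08 and 5.23 in those labelled control. Medians were close, and the lowest control libraries were more than 1 log2 unit below the lowest βKlf6KO libraries. Psmb5 differed by 0.21 ± 0.41 after S961 (SE; adjusted p = 0.767, limma) and 0.21 ± 0.47 after saline (adjusted p = 0.899). Psmb6, the caspase-like site, had 5.34, 6.23 and 6.70 in libraries labelled βKlf6KO S961, against 4.58, 6.07 and 6.76 in those labelled control S961. It had 5.91, 6.4 and 6.80 in libraries labelled βKlf6KO saline, against 4.97, 6.42 and 6.55 in those labelled control saline. Like Psmb5, it had its lowest values in control libraries, and it differed by 0.21 ± 0.27 and 0.20 ± 0.31. Without control S961 replicate 2 the S961 differences were -0.10 for Psmb5 and 0.01 for Psmb6, and without control saline replicate 4 the saline differences were -0.17 and -0.04, so 1 library set the sign or most of the size of each. Psmb7, the trypsin-like site, was tighter, with 6.83, 7.06 and 7.26 in libraries labelled βKlf6KO S961, against 6.70, 7.12 and 7.41 in those labelled control S961, and 6.80, 7.07 and 7.15 in libraries labelled βKlf6KO saline, against 6.90, 7.09 and 7.32 in those labelled control saline. Its differences were -0.04 ± 0.10 and -0.07 ± 0.12.

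The immune subunits were higher on average in libraries labelled βKlf6KO in both treatments, and none passed the test. Psmb8 (chromosome 17, 34197721 to 34201454, plus strand), the immune counterpart of Psmb5, had lowest, median and highest values of 4.25, 4.37 and 5.18 log2 CPM in libraries labelled βKlf6KO saline, against 2.22, 4.13 and 4.28 in those labelled control saline. The groups overlapped near 4.25. Its difference was 0.67 ± 0.40 (SE; limma, adjusted p = 0.502), and it was 0.35 without control saline replicate 4, the lowest library. After S961 it had 3.17, 4.25 and 4.64 in libraries labelled βKlf6KO, against 1.64, 3.86 and 4.57 in those labelled control, a difference of 0.51 ± 0.35 (adjusted p = 0.387). The ranges overlapped over their upper parts, and the difference was 0.24 without control S961 replicate 2.

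Psmb9 (chromosome 17, 34181987 to 34187764, minus strand) is the immune counterpart of Psmb6 and overlaps Tap1 on the other strand, so reads may be shared if strand was not used in counting. It had 2.98, 3.16 and 3.9 log2 CPM in libraries labelled βKlf6KO saline, against 1.54, 2.86 and 3.19 in those labelled control saline, a difference of 0.61 ± 0.36 (SE; limma, adjusted p = 0.479). After S961 it had 2.34, 3.04 and 3.73 in libraries labelled βKlf6KO, against 0.59, 2.97 and 3.22 in those labelled control, a difference of 0.46 ± 0.31 (adjusted p = 0.380). The groups overlapped in both treatments, with the lowest libraries again labelled control. Psmb10 (chromosome 8, 105935735 to 105938444, minus strand), the counterpart of Psmb7, had 2.65, 3.68 and 4.37 in libraries labelled βKlf6KO saline, against 1.12, 3.58 and 3.88 in those labelled control saline, a difference of 0.41 ± 0.60 (adjusted p = 0.845). After S961 it had 1.92, 3.53 and 4.41 in libraries labelled βKlf6KO, against -0.16, 2.74 and 4.35 in those labelled control, a difference of 0.69 ± 0.52 (adjusted p = 0.429). Here too the groups overlapped and the single lowest value was in a control library.

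Single libraries and lanes moved these averages. Without control saline replicate 4 the saline differences were 0.35, 0.38 and 0.00 for Psmb8, Psmb9 and Psmb10, and without control S961 replicate 2 the S961 differences were 0.24, 0.18 and 0.30. Without all 3 libraries that stood apart, the S961 differences were 0.01, 0.00 and 0.02. Within lanes 4, 5, 6 and 7 Psmb8 differed by 0.10, 0.05, 1.27 and 0.84 after saline and by -1.06, 1.18, 0.54 and 1.39 after S961, so the sign was not the same in every lane. Psmb9 differed by 0.08, -0.03, 1.36 and 0.82 after saline and by -0.63, 1.07, 0.20 and 1.19 after S961. Psmb10 differed by -0.99, -0.33, 1.35 and 0.88 after saline and by -1.41, 1.03, 1.05 and 2.11 after S961.

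**Figure D2:**
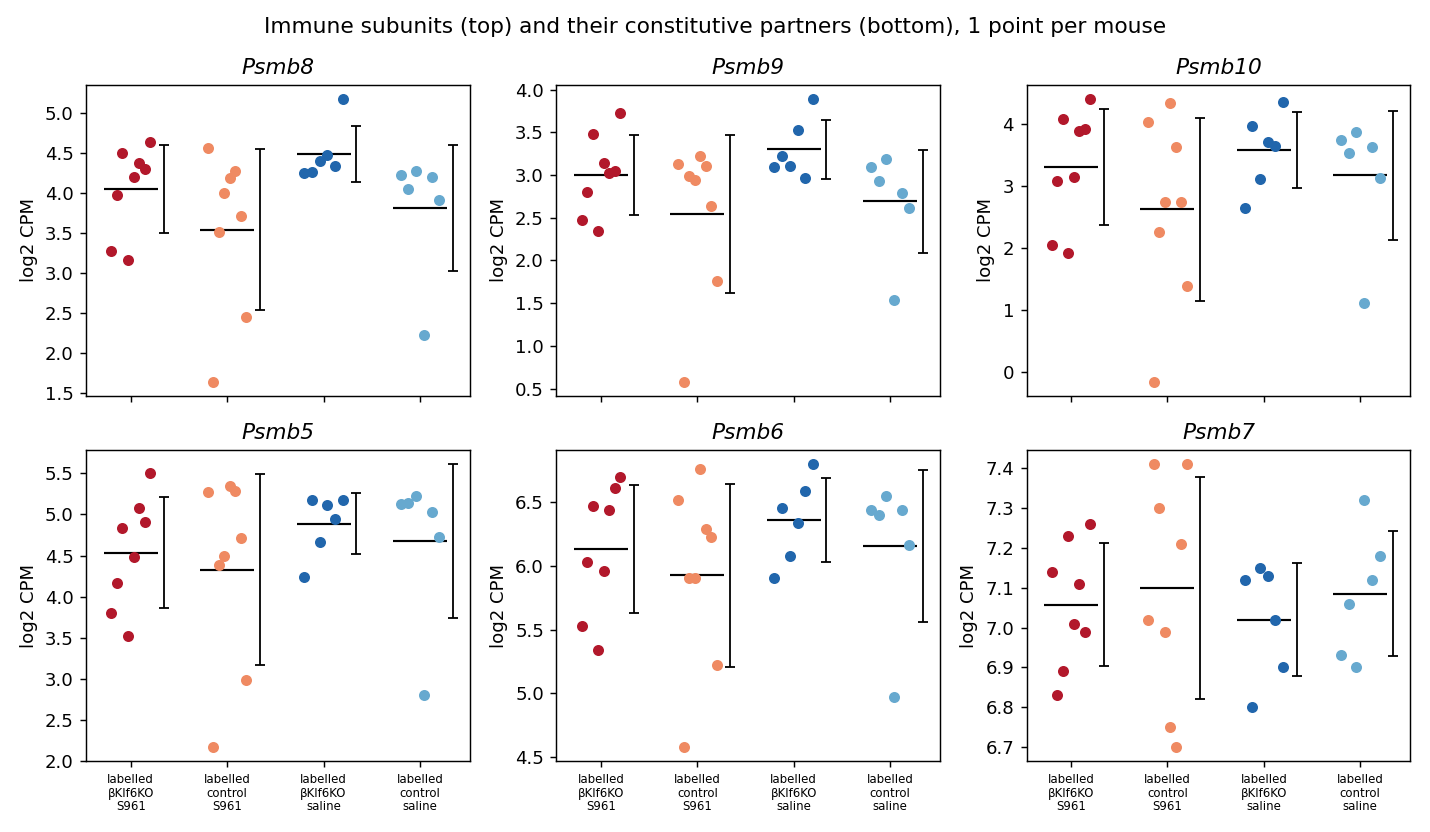
Log2 CPM of the immune subunit genes (top row) and their standard partners (bottom row) in every library, by labelled group; points are mice, lines means and bars SD, and each panel has its own axis. In Psmb8, Psmb9, Psmb10, Psmb5 and Psmb6 the lowest points belong to control libraries, down to 1.64 for Psmb8, while Psmb7 stays between 6.70 and 7.41.

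The ratio of each immune subunit to its partner is a description of the same values. The log2 ratio of Psmb8 to Psmb5 averaged -0.48 ± 0.23 in libraries labelled βKlf6KO S961, against -0.78 ± 0.26 in those labelled control S961 (SD, n = 8 each), and -0.40 ± 0.38 in libraries labelled βKlf6KO saline, against -0.86 ± 0.17 in those labelled control saline (SD, n = 6 each). That of Psmb9 to Psmb6 averaged -3.13 ± 0.25 in libraries labelled βKlf6KO S961, against -3.38 ± 0.35 in those labelled control S961, and -3.06 ± 0.32 in libraries labelled βKlf6KO saline, against -3.47 ± 0.12 in those labelled control saline. Both ratios spread less between control mice than Psmb8 and Psmb9 did alone. The Psmb10 to Psmb7 ratio averaged -3.74 ± 0.98 in libraries labelled βKlf6KO S961, against -4.48 ± 1.73 in those labelled control S961, and -3.44 ± 0.73 in libraries labelled βKlf6KO saline, against -3.91 ± 1.18 in those labelled control saline.

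Immune subunits are abundant in leukocytes. All 8 leukocyte genes were positive for labelled genotype in both treatments, with medians of 1.56 after saline and 0.42 after S961. After saline limma called 1 of them, and 7 had an unadjusted p below 0.05, where 2.09% of all genes were called higher. After S961 it called 0, with 0 at an unadjusted p below 0.05, where 2.35% of all genes were called higher. Their summed level was 64.2 to 237 CPM in libraries labelled βKlf6KO saline, against 50.1 to 68.1 in those labelled control saline. It was 60.7 to 149 in libraries labelled βKlf6KO S961, against 51.0 to 87.1 in those labelled control S961. The highest sum, 237 CPM, was in βKlf6KO saline replicate 6, which also had the highest Psmb8 of all libraries (5.18). Control S961 replicate 2, with the lowest Psmb8 (1.64), had 51.0 CPM, close to the 50.1 CPM of control saline replicate 2, whose Psmb8 was 4.05.

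Over all genes, 2.09% were called higher and 0.692% lower after saline, and 2.35% and 2.01% after S961. The macrophage list had 5 of 13 genes called higher after saline and 1 after S961 (limma, 9 and 7 at an unadjusted p below 0.05). Its summed level was 196 to 917 CPM in libraries labelled βKlf6KO saline, against 125 to 203 in those labelled control saline, and 179 to 583 in libraries labelled βKlf6KO S961, against 130 to 274 in those labelled control S961. Of 5 tested lymphocyte genes, 2 were called higher after saline and none after S961 (limma, 4 and 0 at an unadjusted p below 0.05). Lymphocyte sums were 2.66 to 66.6 CPM in libraries labelled βKlf6KO saline, against 2.24 to 8.69 in those labelled control saline, and 1.46 to 27.0 in libraries labelled βKlf6KO S961, against 1.55 to 12.9 in those labelled control S961. No lymphocyte gene was at 0 in every library, while 4, 5, 3 and 6 of the 8 listed genes were at 0 in some library of the groups βKlf6KO S961, control S961, βKlf6KO saline and control saline. Genes of other cell types were also called. Of 8 genes of dividing cells, 8 were called higher after saline and 4 after S961, with sums of 83.7 to 134 CPM in libraries labelled βKlf6KO saline, against 5.76 to 30.5 in those labelled control saline, and 38.7 to 72.4 in libraries labelled βKlf6KO S961, against 6.1 to 99.6 in those labelled control S961. Of 7 fibroblast and stellate genes, 2 were called higher after saline and 4 after S961, and all 7 were positive in both. Of 9 β-cell genes, Nkx6-1 and Slc2a2 were called lower in both treatments and Pdx1 after S961. The medians of the β-cell list were -0.19 after saline and -0.43 after S961. Uncalled positive differences were those of Ins1 (0.55), Iapp (0.27) and Ins2 (0.21) after saline, and of Ins2 (0.31) after S961. The acinar list had 0 of 6 called in either treatment by limma (0 at an unadjusted p below 0.05 after saline and 4 after S961), with medians of -0.06 after saline and 1.03 after S961. The part of these cells in the immune subunit values was not tested. In whole islets, fewer cells of a type and less RNA per cell cannot be told apart.

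The activator genes Psme1 and Psme2, which are also raised by interferon, were even between groups. Psme1 had lowest, median and highest values of 5.18, 5.44 and 5.75 log2 CPM in libraries labelled βKlf6KO S961, against 5.22, 5.40 and 5.60 in those labelled control S961, and 5.37, 5.52 and 5.74 in libraries labelled βKlf6KO saline, against 5.38, 5.41 and 5.61 in those labelled control saline. The ranges nearly coincided, and the differences were 0.02 ± 0.08 and 0.09 ± 0.09 (SE). Psme1 overlaps Emc9 on the other strand, and further members overlap another listed gene (Psmd5, Psmb7, Psmc3, Psmd13, Psma2 and Psma3), so reads may be shared there. Psme2 had 6.31, 6.68 and 6.91 in libraries labelled βKlf6KO S961, against 6.15, 6.59 and 6.75 in those labelled control S961, and 6.60, 6.79 and 7.03 in libraries labelled βKlf6KO saline, against 6.34, 6.71 and 6.75 in those labelled control saline. The groups overlapped, and its differences were 0.07 ± 0.10 and 0.13 ± 0.12.

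S961 against saline gave no called member in either genotype, and 0% of all genes passed in each comparison by limma. In labelled βKlf6KO islets 2 of 44 standard members had an unadjusted p below 0.05, and in labelled control islets 0 had, with 0 called by voom in both. Medians (S961 minus saline) were -0.04 in labelled βKlf6KO and -0.04 in labelled control islets, against 0.00 over all genes in both, and 19 members were positive in each. In labelled βKlf6KO islets 41 of 44 had a 95% interval within 2-fold (93.2%, against 87.1% of all genes), and in labelled control islets 40 (90.9%, against 86.6%).

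The S961 comparison in labelled βKlf6KO islets had its smallest p for Psmb1, a structural β subunit gene. Psmb1 had 7.13, 7.31 and 7.49 log2 CPM (lowest, median and highest) in libraries labelled βKlf6KO S961, against 7.37, 7.43 and 7.58 in those labelled βKlf6KO saline. The S961 values were centred lower with overlap, at -0.15 ± 0.06 (SE; limma, adjusted p = 0.9997), and within lanes 4 to 7 the difference was -0.16, -0.19, -0.13 and -0.10. The core chaperone Psmg4 differed by -0.38 ± 0.18 and Psme2 by -0.19 ± 0.11, the next by p. In labelled control islets the smallest p values were those of the core chaperone Psmg2 (-0.09 ± 0.07), the base ATPase Psmc5 (-0.21 ± 0.17) and Psme2 (-0.13 ± 0.11), each with an adjusted p = 0.973 by limma.

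For the immune subunits, S961 minus saline was negative in both genotypes without passing the test. In labelled βKlf6KO islets it was -0.43 ± 0.38 for Psmb8, -0.30 ± 0.33 for Psmb9 and -0.26 ± 0.56 for Psmb10 (SE). In labelled control islets it was -0.27 ± 0.38 for Psmb8, -0.15 ± 0.33 for Psmb9 and -0.55 ± 0.56 for Psmb10. One library weighed on the labelled control values: without control S961 replicate 2 they were 0.00, 0.13 and -0.15 for Psmb8, Psmb9 and Psmb10, and without the 3 libraries that stood apart Psmb9 was at 0.08. Within lanes 4 to 7 Psmb8 differed by 0.15, -1.36, 0.68 and -0.84 in labelled control islets, with no common sign. Psmb5 and Psmb6 differed by -0.35 ± 0.44 and -0.23 ± 0.29 in labelled βKlf6KO islets and by -0.35 ± 0.44 and -0.23 ± 0.29 in labelled control islets. Psmb7 differed by 0.04 ± 0.11 in labelled βKlf6KO and 0.01 ± 0.11 in labelled control islets, and Psme1 by -0.10 ± 0.08 and -0.03 ± 0.08. These 4 comparisons share groups in pairs, so their values are not independent of each other.

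The S961 response was also compared between genotypes directly (the response in labelled βKlf6KO minus that in labelled control islets). No member was called (0 of 44 by limma and by voom, 0 at an unadjusted p below 0.05), and 0% of all genes passed. The median was 0.00, against 0.01 over all genes, with 21 of 44 positive. The smallest p values were those of Psmd8 (0.31 ± 0.23), Psmb1 (-0.10 ± 0.09) and Psmg4 (-0.26 ± 0.26), and the immune subunits Psmb8, Psmb9 and Psmb10 gave -0.16 ± 0.53, -0.15 ± 0.47 and 0.29 ± 0.80. The standard partners Psmb5, Psmb6 and Psmb7 gave 0.00 ± 0.62, 0.00 ± 0.41 and 0.03 ± 0.15, and the activators Psme1 and Psme2 gave -0.07 ± 0.12 and -0.06 ± 0.15. For 39 of 44 standard members the 95% interval lay within 2-fold (88.6%, against 74.3% of all genes), the others being Psmd4, Psmg3, Psmb3, Psmd3 and Psmb5.

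Mice of 1 group differed far more in some members than in others. The pooled SD within groups had a median of 0.30 log2 units over the 47 proteasome genes, against 0.36 over all genes. It was below 0.2 for 14 of them, with Psmb1 lowest at 0.09, followed by Psmd7, Psmg2 and the base ATPase Psmc1 at about 0.10. It was at least 0.5 for 9: Psmg3 (1.26), Psmb10 (1.10), Psmb5 (0.86), Psmd3 (0.84), Psmb8 (0.74), Psmb9 (0.64), Psmb3 (0.63), Psmb6 (0.57) and Psmd4 (0.55). Thus subunits that sit in the same ring differed widely in spread: Psmb5 and Psmb6 varied by several times the SD of Psmb7 (0.20) and Psmb1.

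In the libraries that stood apart the wide members were low together. These libraries also enter the SD that marked those members as wide, so this is no separate result. In control S961 replicate 2, 11 members lay more than 1 log2 unit below their group median, with Psmg3 at -3.82, Psmb10 at -2.90, Psmb5 at -2.43 and Psmb9 at -2.38. In the same library the activator gene Psme4 was 1.03 above, the α ring gene Psma3 0.96 above and the base ATPase Psmc6 0.95 above. Control saline replicate 4 had 10 members more than 1 unit below, and control S961 replicate 8 had 6. The share of all genes that far below was not counted, so these counts are not shown to be particular to proteasome genes. The range between the highest and the lowest deviation of the 47 genes was 4.85, 3.87 and 2.89 log2 units in control S961 replicate 2, control saline replicate 4 and control S961 replicate 8, against 0.376 to 2.81 in the other 25 libraries. The heatmap of deviations shows these as columns with red at the top and blue at the bottom.

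**Figure D3:**
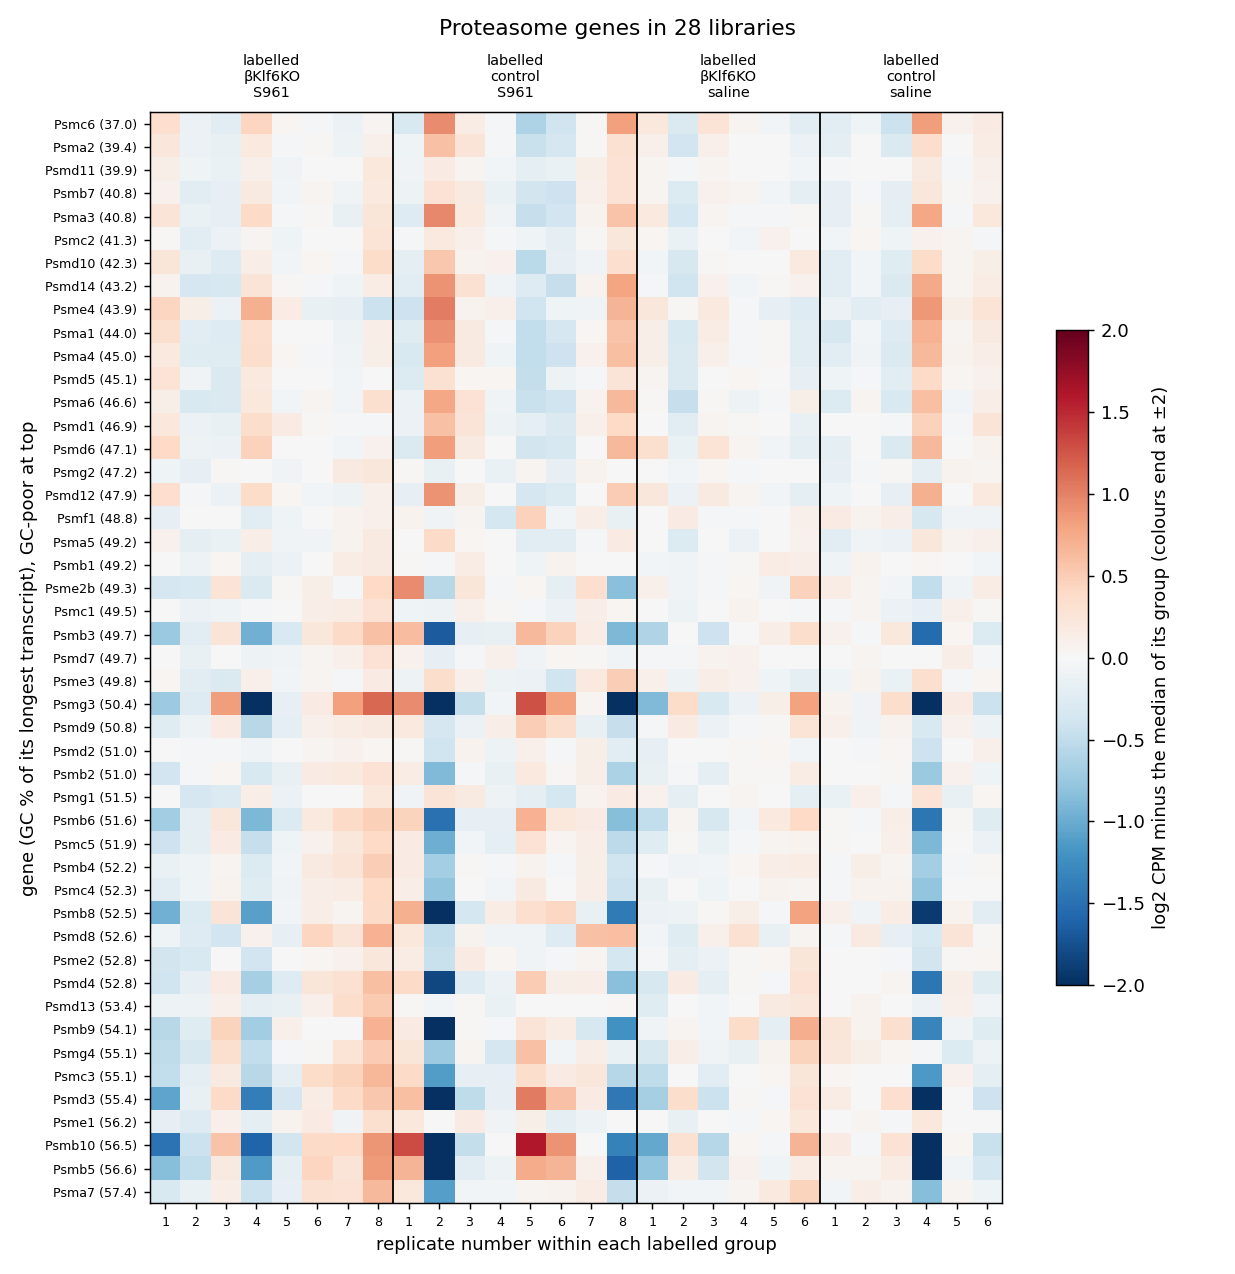
Deviation of each of 47 proteasome genes from its group median (log2 CPM, colours end at ±2) in 28 libraries, with genes ordered by the GC content of the longest transcript, from 37.0% at the top to 57.4% at the bottom. Control S961 replicates 2 and 8 and control saline replicate 4 are high at the top and low at the bottom, with Psmg3 down to -3.82.

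Across members, these deviations ran with transcript GC content. The longest transcripts of the members had 37.0% to 57.4% GC (median 49.7%, against 49.2% over all genes). The Spearman correlation between GC content and deviation over the 47 genes, which are not independent replicates, was -0.79 in control S961 replicate 2, -0.75 in control saline replicate 4 and -0.72 in control S961 replicate 8. Over 13584 genes it was -0.83, -0.83 and -0.75 in the same libraries. This relation was not particular to those libraries. The correlation was -0.81 over members and -0.73 over all genes in βKlf6KO S961 replicate 1. It was -0.78 and -0.80 in βKlf6KO S961 replicate 4, and -0.73 and -0.63 in βKlf6KO saline replicate 1. The sign was opposite in others, such as control S961 replicate 5 (0.77 over members and 0.80 over all genes) and βKlf6KO S961 replicate 7 (0.73 and 0.64). Not every member followed GC content: Psme1, at 56.2% GC, deviated by -0.01 in control S961 replicate 2, while Psmb3, at 49.7%, deviated by -1.67 and Psmg3, at 50.4%, by -3.82.

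**Figure D4:**
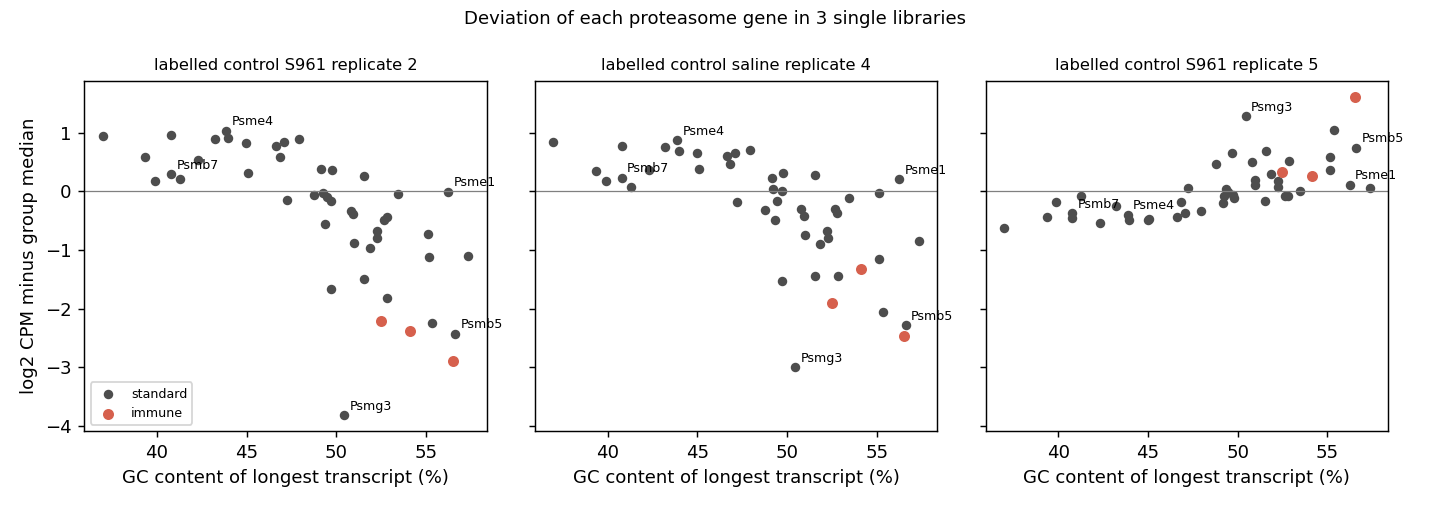
Deviation from the group median (log2 CPM) against GC content of the longest transcript (%) for 47 proteasome genes in 3 single libraries, with immune subunits in red. The Spearman correlation is -0.79 in control S961 replicate 2, -0.75 in control saline replicate 4 and 0.77 in control S961 replicate 5.

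Pairs of β genes were correlated across the 28 libraries, in a family of 10 pairs tested by permutation (100000 resamples, two-sided). Each p-value tests a pair against no relation between its genes. Deviations over all genes also ran with transcript GC content in single libraries, so high correlations need not be special to these genes. Pairs outside this family were not examined, so whether β genes moved together more than other genes was not tested. The immune genes Psmb8 and Psmb9 had Pearson r = 0.960 and Spearman correlation = 0.840 (permutation p = 1e-05 each, the smallest possible; adjusted 1.67e-05 and 2.5e-05). Without the 2 libraries farthest from the median of Psmb8, r was 0.917, and without the 3 libraries that stood apart it was 0.869. It was 0.935, 0.961, 0.894 and 0.973 within βKlf6KO S961, control S961, βKlf6KO saline and control saline, and 0.926 to 0.994 within lanes of 7 libraries. Psmb8 with Psmb10 gave r = 0.943 and Spearman correlation = 0.844 with the same p values, 0.888 without the 2 farthest libraries and 0.854 without the 3. Psmb9 with Psmb10 gave r = 0.914 and Spearman correlation = 0.842, 0.821 without the 2 farthest and 0.753 without the 3.

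The immune genes Psmb8 and Psmb9 also ran with their standard partners. Psmb8 and Psmb5 had r = 0.926 and Spearman correlation = 0.716 (permutation p = 1e-05 and 6e-05, adjusted 1.67e-05 and 0.0001), with r = 0.842 without the 2 farthest libraries, 0.750 without the 3 and 0.863 to 0.967 within lanes. Within βKlf6KO S961, control S961, βKlf6KO saline and control saline r was 0.947, 0.982, 0.460 and 0.994. Psmb9 and Psmb6 had r = 0.888 and Spearman correlation = 0.726, with r = 0.775 without the 2 farthest, 0.688 without the 3, and 0.870, 0.937, 0.563 and 0.980 within the same 4 groups. Both pairs were thus lowest within βKlf6KO saline. The standard genes Psmb5 and Psmb6 had r = 0.970 and Spearman correlation = 0.865, 0.940 without the 2 farthest. These correlations join genes that had their lowest values in the same 3 libraries.

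Psmb7, at 40.8% GC, ran the other way. It had r = -0.705 with Psmb10 (permutation p = 5e-05, Spearman correlation = -0.636), -0.651 with Psmb5 (p = 0.00013, Spearman correlation = -0.573) and -0.658 with Psmb6 (p = 0.0001, Spearman correlation = -0.600), all below 0.05 after adjustment over the 10 pairs. Within the 4 lanes, r of Psmb5 with Psmb7 was -0.842 to -0.628, and within βKlf6KO S961 it was 0.00. In values corrected for transcript GC content the same 3 pairs had r = 0.859, 0.842 and 0.882, so the sign of the relation depended on that correction. After it Psmb8 with Psmb9 had r = 0.876, Psmb8 with Psmb10 had 0.905, Psmb9 with Psmb10 had 0.754 and Psmb8 with Psmb5 had 0.769. With the correction and without the 3 libraries, r was 0.716 for Psmb8 with Psmb9, 0.796 for Psmb8 with Psmb10 and 0.432 for Psmb9 with Psmb10. It was 0.448 for Psmb8 with Psmb5 and 0.295 for Psmb9 with Psmb6. Psme1 and Psme2 had r = 0.579 and Spearman correlation = 0.576 (permutation p = 0.00115 and 0.00168), 0.437 without the 2 farthest libraries, 0.934 within βKlf6KO saline and -0.932 within control saline, where the high Psme1 and low Psme2 of replicate 4 weigh.

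**Figure D5:**
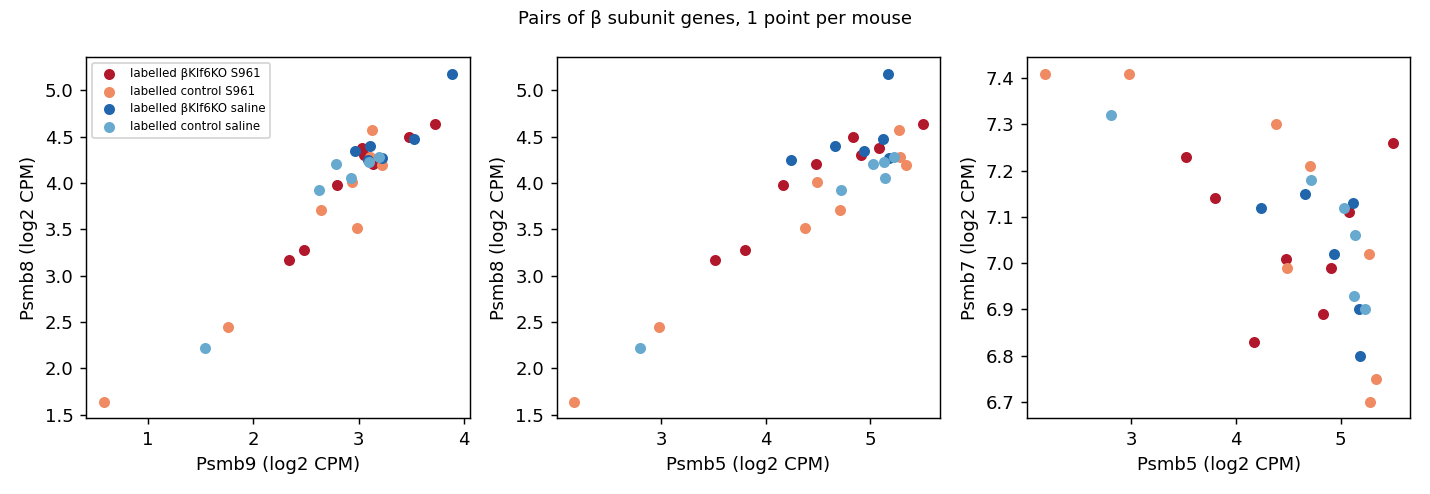
Log2 CPM of Psmb8 against Psmb9 (left), Psmb8 against Psmb5 (middle) and Psmb7 against Psmb5 (right), 1 point per mouse, coloured by labelled group. The first 2 panels rise with r = 0.960 and 0.926, and the third falls with r = -0.651.

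Genes around the proteasome were also mostly uncalled, where 2.78% of all genes were called for labelled genotype after saline and 4.36% after S961. Of 10 genes for further proteasome parts, such as the assembly factor Pomp and the deubiquitinase Usp14, 0 were called in any of the 5 comparisons by limma, with 0 at an unadjusted p below 0.05 after saline and 2 after S961 for labelled genotype. The ubiquitin and E1 list (4 genes), the transcription factors of proteasome genes such as Nfe2l1 (7 genes) and the shuttle and Vcp list (8 genes) had 0 calls as well, with 0, 1 and 0 at an unadjusted p below 0.05 after saline and 0, 1 and 3 after S961. The interferon list had 0 of 12 called, with 3 and 0 at an unadjusted p below 0.05 after saline and S961, and medians of 0.09 and -0.01. The class I presentation list had 1 of 9 called, after S961: Calr, a chaperone of the endoplasmic reticulum that helps load class I molecules. Calr had 9.46, 9.51 and 9.71 log2 CPM (lowest, median and highest) in libraries labelled βKlf6KO S961, against 9.73, 9.92 and 10.22 in those labelled control S961. The groups did not overlap, and Calr fell by 0.40 ± 0.08 (SE; limma, adjusted p = 0.00753). Fitting only the 2 groups compared ended this call (adjusted p = 0.0641, the highest of 12 alternatives, the lowest being 0.000841), and after saline the difference was -0.27 ± 0.09 (adjusted p = 0.116). The saline difference of Calr was called under 3 of 12 alternatives, with library weights (adjusted p = 0.00838), the GC correction (0.0412) and the first component (0.0241).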

How the data were processed

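The authors deposited 1 table of log2 CPM for 14219 genes in 28 islet libraries. The submitters' processing notes list STAR 2.5.3a, HTSeq 0.9.1, edgeR and the build GRCm38. Strand use in counting was not given in the sources used here. Inverting log2 of a count plus 0.5 over a scaled library size gave whole reads within 0.05 for 100% of values. The deposited log2 values were used as given. A gene was kept when 6 or more libraries had 1 CPM or more (13591 of 14219). Group means of the 28 libraries were fitted in R 4.3.3 by limma 3.58.1 using an intensity trend and empirical Bayes moderation. Tests were two-sided, and a call is a Benjamini-Hochberg adjusted p under 0.05 over all genes. All adjusted p values of single genes are from limma. Libraries came from separate mice, and the p-values measure the spread between those mice.

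Members and lists were chosen with earlier results of these data known. By rule, every comparison names the 3 standard members of smallest p if no member passed, the immune subunits, their partners, Psme1, Psme2 and called genes of pathway lists. Members singled out for their spread, their place in a range or their deviation in 1 library were chosen after their values were seen. Transcript GC content and length are those of the longest GENCODE M21 transcript, which also gave gene coordinates. The fit was tested on simulated data. Same-numbered libraries did not all deviate together, so replicate numbers were not used as pairs. Alternatives covered low values (a floor, no filter, a filter at 5 CPM), voom or library weights, fewer groups, replicate block, lane, median centring, GC correction in 20 bins, the first component, and leaving out libraries; GC-corrected pair correlations were added after seeing the data.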

Additional observations from a re-analysis of the deposited data

Results flagged for a closer look

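Of 40 groups of values examined (10 genes in 4 labelled groups), 8 had 1 library far from the rest by Dixon's criterion. The genes share the same libraries and most flags fell on 1 library, so this count is not comparable with a rate by chance. Control S961 replicate 2 was not flagged, although its Psmb10 was -0.16 log2 CPM, where replicate 8 of that group was also low (1.39). In control saline, replicate 4 was lowest for Psmb5 (2.8 log2 CPM, next lowest 4.72), Psmb6 (4.97, next 6.17), Psmb8 (2.22, next 3.92), Psmb9 (1.54, next 2.62), Psmb10 (1.12, next 3.13) and Psme2 (6.34, next 6.68). The same library was highest for Psme1 (5.61, next 5.46). In βKlf6KO saline, replicate 6 was highest for Psmb8 (5.18, next 4.48), and it also had the highest summed leukocyte markers. Their part in the Psmb8 value was not tested.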

How the results depend on the processing

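The count of called standard members, 0 in all 5 comparisons, stayed 0 under most alternatives, among them voom weights, sequencing lane, the filters and the floor, and leaving out each library in turn gave 0 to 0. The exceptions were in labelled genotype. After saline the count became 3 of 44 with library weights (1 higher, 2 lower; 3018 of all 13591 genes called), 1 with the GC correction (1208 of all genes), 4 with the first component (1 higher, 3 lower; 2821 of all genes) and 1 without the 3 libraries that stood apart (690 of all genes). After S961 it became 1 with median centring (471 of all genes) and 7 with the first component (1 higher, 6 lower; 3829 of all genes). Each of these shares of the 44 was below the share of all genes called under the same setting. These calls included Psmf1, Psmd10 and Psmc5, and the cause was not tested. With the first component, called differences turned negative for Psmd3 after saline (-0.30) and for Psmb5 (-0.33), Psmb3 (-0.16), Psmd3 (-0.24) and Psmc5 (-0.17) after S961. Of 9338 values of single members under alternatives, 12 were newly called with their sign kept, 5 with the opposite sign, and 9321 stayed uncalled. No member was called in the main fit, so no call could be lost. Changes of sign in uncalled values were not counted, such as Psmb5 after S961 (0.21, but -0.38 without the 3 libraries that stood apart). For S961 against saline and the difference of responses, 0% of all genes passed in the main fit. With the replicate block the count was 0 in every comparison, and all-gene calls were 354 against 378 after saline and 614 against 593 after S961. Same-numbered libraries correlated between -0.712 and 0.563, and in 3 of the 4 comparisons no library correlated best with its own number. In S961 against saline in labelled βKlf6KO islets 3 of 6 did. Since same-numbered libraries correlated negatively in some pairs of every comparison, the numbers were not taken to pair mice.

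The immune subunits were called under no alternative. Low reads limit Psmg3, with 4 in its lowest library. The fit of only the groups compared gives no value for the difference of responses.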
